A study of Mus musculus with 200 samples.

Results

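Lipocalins and gland secretory proteins are described here as 10 named genes of a table of 38406, followed through single medullary thymic epithelial cells (mTECs), the thymic cells that show antigens of other tissues to developing T cells. The genes are the lipocalins Lcn2, Obp2a, Lcn3 and Lcn4, the secretoglobins Scgb1a1, Scgb1c1, Scgb3a1 and Scgb3a2, and the salivary and lacrimal proteins Spt1 and Pip. They were chosen by name, with earlier results of these data known. The 200 cells came from thymi of female B6xNOD mice aged 5 weeks, and every mouse carried the Aire-GFP transgene, a marker of Aire expression. Cells were sorted as CD45-, Ly51- and MHCII+ with high GFP (GFPhi) or low GFP (GFPlo). The groups were 48 KO GFPhi cells (Aire knockout, high GFP), 61 WT GFPhi cells (Aire wild type, high GFP), 52 KO GFPlo cells (Aire knockout, low GFP) and 39 WT GFPlo cells (Aire wild type, low GFP). The labels name no animal and do not say how many animals or thymi a group came from. Each group therefore counted as 1 sample and nothing was tested, and animals and groups cannot be told apart.

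Lipocalins are small secreted proteins with a barrel fold that carries hydrophobic ligands such as odorants, pheromones, fatty acids and bacterial iron carriers. Secretoglobins are small secreted dimeric proteins of airway and gland epithelium. Both families are made in quantity by nasal, salivary, lacrimal and airway glands, and mTECs are known to transcribe genes of such tissues at low frequency, in part through Aire. Lcn2 binds the iron-carrying siderophores of bacteria and is also known as a neutrophil granule protein and as a gene that inflammation induces in many epithelia. Obp2a is an odorant-binding protein of the nose, and Lcn3 and Lcn4 are secreted by vomeronasal glands. Scgb1a1 is the secretory protein of airway club cells, Scgb3a1 and Scgb3a2 are airway secretoglobins, and Scgb1c1 is known in rat from the olfactory mucosa. Spt1 and Pip are secreted proteins of the salivary glands, Pip also of the lacrimal gland.

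Of the 10 genes, 5 had at least 10 counts over all cells and carry the results: Lcn2 with 349, Obp2a with 236, Lcn3 with 48, Scgb1c1 with 1051 and Spt1 with 480. Scgb1a1 had 1 count, in a WT GFPhi cell. Lcn4, Scgb3a1, Scgb3a2 and Pip had 0 counts, and 0 of 200 cells allows a share of up to 1.5% if each cell is a separate find. Cells that share a primer, described below, cannot be read so, and the share allowed is then higher. In the GENCODE annotation of the build named in the labels (GRCm38, mm10), all 10 are protein-coding genes. Obp2a (chr2:25700043-25703326, plus strand), Lcn3 (chr2:25765569-25768099, plus strand), Lcn4 (chr2:26667674-26671282, minus strand) and Lcn2 (chr2:32384633-32388252, minus strand) lie on chromosome 2. Scgb1c1 lies at chr7:140845547-140846769 on the plus strand. Spt1, which RefSeq lists as Mucl2, lies at chr15:103895855-103899312 on the minus strand. The remaining genes lie apart from these, Pip on chromosome 6, Scgb3a1 on 11, Scgb3a2 on 18 and Scgb1a1 on 19.

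The stretches just before the RefSeq start of the 5 counted genes are shown because all 5 were lower in KO GFPhi than in WT GFPhi cells. They are read 5′ to 3′ on the gene's strand from RefSeq promoters of build GRCm38.p6, without bases of annotated exons where that leaves the motif whole, and capitals mark ATAAA, with the T before it where the letters are TATAAA.
Lcn2, chr2:32387781-32387810, minus strand, 30 bases around the motif: ccaggtaggcccATAAAaagcccgctgggg
Obp2a, chr2:25699974-25700042, plus strand: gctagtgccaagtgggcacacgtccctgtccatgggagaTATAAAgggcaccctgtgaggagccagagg
Lcn3, chr2:25765433-25765532, plus strand: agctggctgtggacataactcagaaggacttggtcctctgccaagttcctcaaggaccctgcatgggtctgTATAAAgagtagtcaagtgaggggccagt
Scgb1c1, chr7:140845465-140845546, plus strand: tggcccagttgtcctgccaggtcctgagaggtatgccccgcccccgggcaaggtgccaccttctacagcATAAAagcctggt
Spt1, chr15:103899313-103899412, minus strand: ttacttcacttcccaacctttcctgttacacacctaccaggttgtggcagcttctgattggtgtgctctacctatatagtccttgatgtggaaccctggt

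The letters ATAAA were searched in the 100 bases before the RefSeq start on both strands, a choice made after the sequences were seen. They began 59 bases before the start in Lcn2, 60 in Obp2a, 28 in Lcn3 and 31 in Scgb1c1, on the gene's strand in each, and were not among the letters of that window in Spt1. They were not particular to counted genes. Of genes with 0 counts, Lcn4 held them 69 and Pip 27 bases before the start, and Scgb3a1 did not hold them. Among 32851 promoters of all genes, 17.5% held ATAAA on either strand, and 5.56% held TATAAA, which contains it. The RefSeq start of Lcn2 lies inside the GENCODE gene body, and those of Obp2a and Scgb1c1 lie a little inside theirs. The same 100 bases held 2 CpG dinucleotides in Lcn2, 1 in Obp2a, 0 in Lcn3, 2 in Scgb1c1 and 0 in Spt1. Over all promoters the median was 3, and 48.8% of promoters had at most 2.

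Cells were sorted on 2 dates, with 9 KO GFPhi, 23 WT GFPhi, 22 KO GFPlo and 18 WT GFPlo cells on the first and 39, 38, 30 and 21 on the second. Totals ran from 2429 to 370365 counts a cell (median 29106.5), and group sums were 3011900 counts in KO GFPhi, 3468109 in WT GFPhi, 1847240 in KO GFPlo and 2260672 in WT GFPlo cells. Aire, the targeted gene, was counted in 43 of 48 KO GFPhi, 57 of 61 WT GFPhi, 35 of 52 KO GFPlo and 26 of 39 WT GFPlo cells, at 815, 537, 316 and 244 CPM. Its counts per cell ran from 0 to 217 in KO GFPhi (median 35.5), 0 to 141 in WT GFPhi (median 14), 0 to 80 in KO GFPlo (median 1.5) and 0 to 191 in WT GFPlo cells (median 2). Aire transcript was thus present in cells labelled KO, at a summed level above that of WT in both gates. The sources used here do not say which part of the gene is deleted, so these counts do not check the genotype, and KO and WT are used as the labels give them. Each cell had at least 1 count of the 14 epithelial markers, Epcam, keratins and Aire among them. Their summed level was 6764 counts per 1000000 (CPM) of the group sum in KO GFPhi, 5114 in WT GFPhi, 4568 in KO GFPlo and 6418 in WT GFPlo cells. The summed level of 26 leukocyte markers was 2113, 7969, 4417 and 6383 CPM in the same order, although the sort took CD45- cells. Cells with more leukocyte than epithelial marker counts (leukocyte-marked cells) numbered 4 of KO GFPhi, 11 of WT GFPhi, 20 of KO GFPlo and 6 of WT GFPlo, and held 4.96%, 27.1%, 43.1% and 23.2% of the group's counts. Levels below are counts per 1000000 of the group sum with exact Poisson 95% intervals, which cover counting error only.

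Cells of different library pools shared counts of rare genes where they shared a primer. Each label names a primer, of a kind called ls or umi with a number, and cells came in 12 pools, 6 for each date. The 200 cells held 54 combinations of primer and date, each within 1 group, and 51 of them, with 197 cells, spread over more than 1 pool. Over 8621 genes counted in 2 to 20 cells, pairs of cells with the same primer and date in different pools had a median Jaccard index, the share of their genes that both held, of 0.134 (313 pairs, 0.0353 to 0.411). Pairs of the same group and date with other primers in other pools had 0.0211 (2003 pairs). Primers ls_5, of WT GFPhi cells, and ls_12, of KO GFPlo cells, shared more within a pool, with a median of 0.490 (7 pairs). The cause of this sharing was not tested, and cells of 1 primer and date cannot be read as separate finds of a gene. Counts below are therefore also given by primer and date, and ratios also with each gene counted only in the cell that held most of it for a primer and date (the leading cells), which was added once this sharing had been seen.

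**Figure D1:**
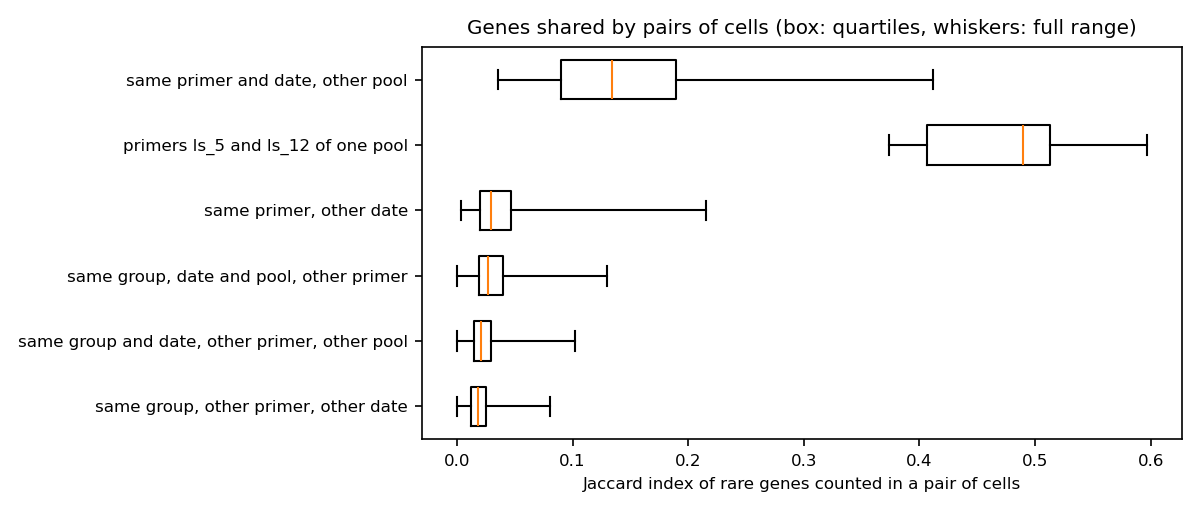
Jaccard index of rare genes (counted in 2 to 20 cells) for pairs of cells, by what the pair shares; boxes give quartiles with the median as a line, and whiskers the full range. Pairs of the same primer and date in different pools (median 0.134) and of primers ls_5 and ls_12 in a pool (0.490) lie above pairs of the same group and date with other primers in other pools (0.0211).

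The counts of the 5 genes followed this pattern. Lcn2 was counted in 18 cells, of which 17 shared a primer and date with another such cell, and these were 7 combinations of primer and date. Obp2a was counted in 20 cells of 8 combinations, Lcn3 in 13 cells of 9, Scgb1c1 in 35 cells of 17 and Spt1 in 20 cells of 8. Leading cells held 273 of 349 counts of Lcn2, 188 of 236 of Obp2a, 36 of 48 of Lcn3, 953 of 1051 of Scgb1c1 and 353 of 480 of Spt1. Lcn3 was the least shared by this measure, with 6 of its 13 cells in a combination that held another.

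**Figure D2:**
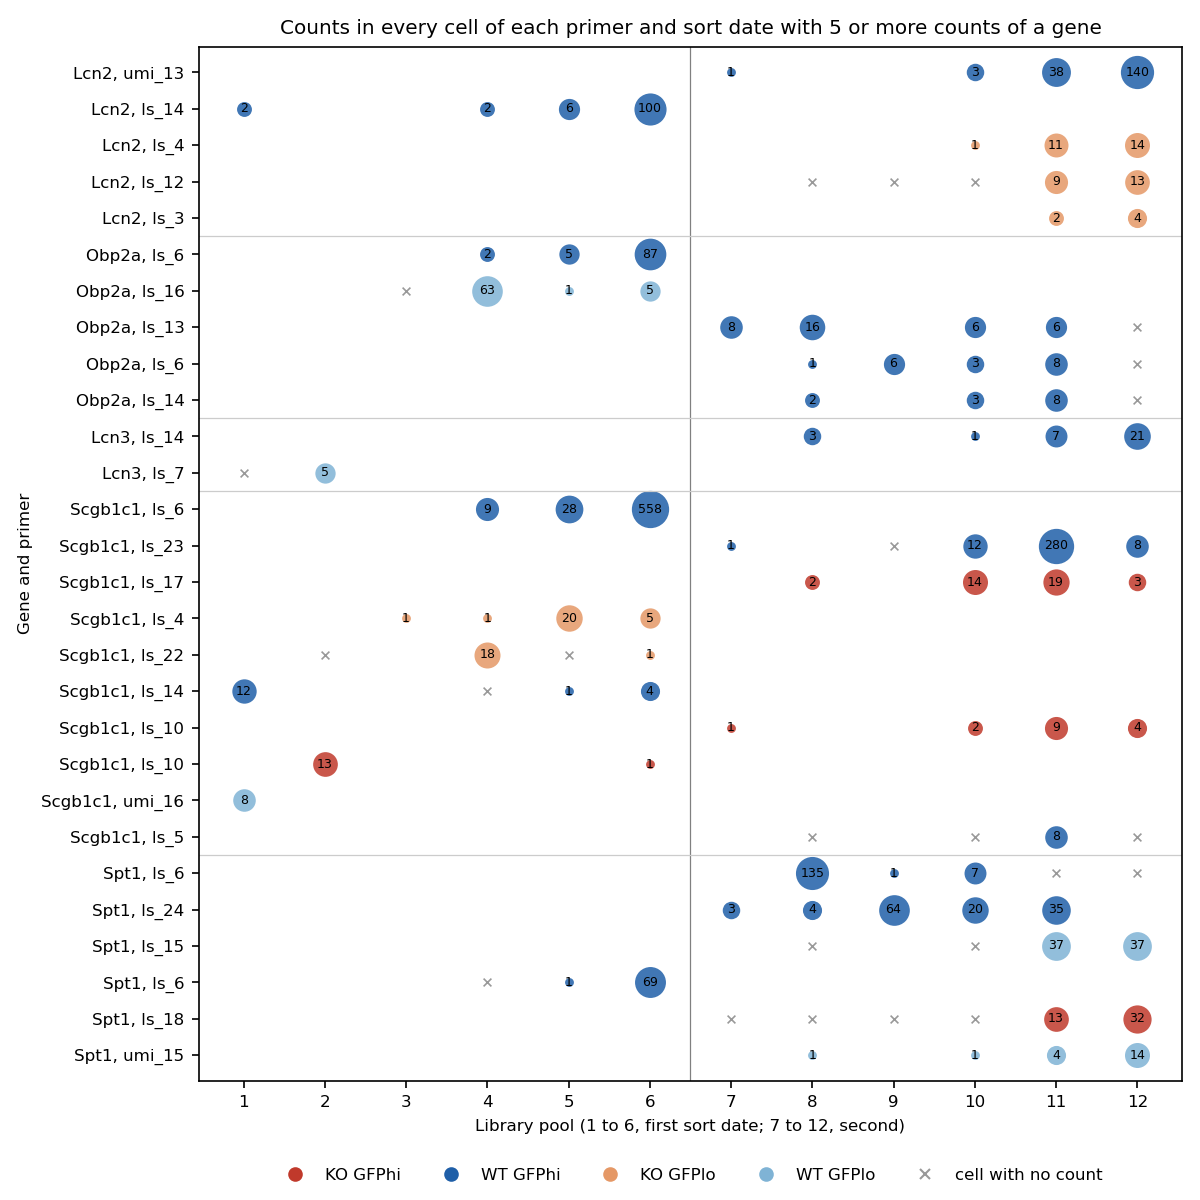
Counts of a gene (number in each circle, area growing with the log of the count) by library pool on the x axis, for every primer and date with at least 5 counts, coloured by group; crosses are cells of the same primer and date with no count. In most rows 1 pool holds most of the counts and other pools hold fewer, as for Scgb1c1 with primer ls_6, with 558, 28 and 9 counts in pools 6, 5 and 4.

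Lcn2 was absent from KO GFPhi cells and present in WT GFPhi and KO GFPlo cells. Its level was 0 CPM (0 of 48 cells, interval 0–1.22 CPM) in KO GFPhi, 84.8 CPM (75.4–95.04, 10 of 61 cells) in WT GFPhi, 29.2 CPM (21.96–38.1, 7 of 52 cells) in KO GFPlo and 0.442 CPM (0.0112–2.46, 1 of 39 cells) in WT GFPlo cells. The count intervals of WT GFPhi, KO GFPlo and the remaining groups do not overlap, while those of KO GFPhi and WT GFPlo do. The WT GFPhi counts stood in 3 of its 16 combinations of primer and date. Primer umi_13 of the second date gave 140, 38, 3 and 1 counts in its 4 cells, and primer ls_14 of the first date gave 100, 6, 2 and 2. Primer ls_5 of the second date gave 1 and 1, in pools 11 and 12, where the ls_12 cells of KO GFPlo held 9 and 13. The KO GFPlo counts also stood in 3 combinations, all of the second date: ls_4 with 14, 11 and 1, ls_12 with 13 and 9, and ls_3 with 4 and 2. Thus 2 primers carried nearly all of the WT GFPhi level, 1 for each date.

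By date, Lcn2 was at 0 and 0 CPM in KO GFPhi, 94.3 and 79.9 CPM in WT GFPhi, 0 and 46.2 CPM in KO GFPlo, and 0 and 0.853 CPM in WT GFPlo cells on the first and the second date. The WT GFPhi level was thus alike on both dates, and the KO GFPlo level came from the second alone. Of the 14 neutrophil markers, 8 had a count in at least 1 of the 18 cells with Lcn2 and 6 had none. Those at 0 in all 18 cells were Elane, Ly6g, Camp, Ltf, Prtn3 and Retnlg, and Mpo reached 1. Cxcr2, a chemokine receptor gene, was in 11 of the cells with at most 17 counts, and S100a8, which encodes a calcium-binding protein of myeloid cells, in 9 with at most 76. Mmp8 was in 9 cells, Mpo in 5, S100a9 and Ngp in 4 each, Csf3r in 2 and Mmp9 in 1. The Ngp counts, 2 to 14 a cell, were in the 4 cells of primer ls_14. The 14 markers summed to 312 CPM over the 10 WT GFPhi cells with Lcn2 and to 2031 CPM over the 51 without it, with ranges over single cells of 87.8 to 1131 CPM and 0 to 23078 CPM. In KO GFPlo cells they summed to 346 CPM over the 7 cells with Lcn2 and to 248 CPM over the 45 without it, with ranges of 0 to 766 CPM and 0 to 4995 CPM. The summed level was thus lower with Lcn2 in WT GFPhi and higher with it in KO GFPlo. Per-cell medians were 274 CPM with Lcn2 and 803 CPM without it in WT GFPhi, and 104 and 95.7 CPM in KO GFPlo. The KO GFPlo sum with Lcn2 rested mostly on the pool 11 cell of primer ls_12, with 76 counts of S100a8. The ls_5 cell of that pool, labelled WT GFPhi, also held 76. The part of neutrophil RNA in the Lcn2 level was not tested.

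Genes known to be induced with Lcn2 in inflammation accompanied it in some primers and not in others. The cell of umi_13 with 140 Lcn2 counts held 1397 counts of Saa3 and 130 of Saa1, both acute-phase apolipoproteins, and 158 of the chemokine gene Cxcl1. The KO GFPlo cells of ls_4 with 14 and 11 Lcn2 counts held 228 and 152 counts of Saa3 and 117 and 85 of Saa1. The cells of ls_12 with 13 and 9 Lcn2 counts held 1 and 0 of Saa3, and the WT GFPhi cell of ls_14 with 100 held 15. These genes were picked from their list after their values in these cells were seen. The whole list had a per-cell median of 1407 CPM in the 10 WT GFPhi cells with Lcn2 and 1818 CPM in the 51 without. Its summed level there was 7326 and 3344.5 CPM. In KO GFPlo the medians were 1744 CPM in the 7 cells with Lcn2 and 265 CPM in the 45 without. The summed levels there were 3591 and 559 CPM. Of the Lcn2 cells, 5 of 18 were leukocyte-marked, among them the umi_13 cells with 38, 3 and 1 counts. Without leukocyte-marked cells the log2 ratio of KO over WT was −9.16 in GFPhi, close to the −9.00 of all cells.

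Obp2a was found almost entirely in WT cells. Its level was 0.332 CPM (0.00841–1.85, 1 of 48 cells) in KO GFPhi, 46.4 CPM (39.5–54.2, 14 of 61 cells) in WT GFPhi, 0 CPM (0–2.00, 0 of 52 cells) in KO GFPlo and 32.7 CPM (25.7–41.1, 5 of 39 cells) in WT GFPlo cells. The intervals of the 2 KO groups overlap, and those of the 2 WT groups overlap at their ends. In WT GFPhi cells primer ls_6 of the first date gave 87, 5 and 2 counts. On the second date ls_13 gave 16, 8, 6 and 6 counts, ls_6 gave 8, 6, 3 and 1, and ls_14 gave 8, 3 and 2. On the second date no cell held more than 16 counts. In WT GFPlo cells primer ls_16 gave 63, 5 and 1 of the 74 counts, and all 74 were of the first date. The level by date was 80.6 and 29.1 CPM in WT GFPhi and 68.0 and 0 CPM in WT GFPlo cells.

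Lcn3 was the rarest of the 5 genes. Its level was 0 CPM (0–1.22, 0 of 48 cells) in KO GFPhi, 10.7 CPM (7.51–14.7, 8 of 61 cells) in WT GFPhi, 0.541 CPM (0.0137–3.02, 1 of 52 cells) in KO GFPlo and 4.42 CPM (2.12–8.13, 4 of 39 cells) in WT GFPlo cells. The intervals of WT GFPhi and WT GFPlo overlap, as do those of WT GFPlo and KO GFPlo. All 37 WT GFPhi counts were of the second date, and primer ls_14 gave 32 of them, as 21, 7, 3 and 1. Of the 10 WT GFPlo counts, 9 were of the first date, in cells of 3 primers. The only KO count was in the pool 11 cell of primer ls_12, whose ls_5 neighbour in that pool also had 1 count.

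Scgb1c1 was counted in every group and in the most cells. Its level was 23.2 CPM (18.1–29.4, 12 of 48 cells) in KO GFPhi, 266 CPM (248.97–284, 12 of 61 cells) in WT GFPhi, 25.98 CPM (19.2–34.5, 8 of 52 cells) in KO GFPlo and 4.87 CPM (2.43–8.71, 3 of 39 cells) in WT GFPlo cells. The intervals of KO GFPhi and KO GFPlo overlap, with WT GFPhi above and WT GFPlo below them. The share of cells with a count was 25% (exact binomial 95% interval 13.6–39.6%) in KO GFPhi and 19.7% (10.6–31.8%) in WT GFPhi cells. The 12 cells of each of these groups came from 5 combinations of primer and date, and the 2 highest WT GFPhi cells held most of that group's counts. Among cells with a count the median was 2.5 counts and the highest 19 in KO GFPhi, against a median of 8.5 and a highest of 558 in WT GFPhi cells. The WT GFPhi cell with 558 counts (pool 6, ls_6, first date) held 60.5% of its group's Scgb1c1. A second WT GFPhi cell held 280 (pool 11, ls_23, second date) and was leukocyte-marked, with 4416 leukocyte and 937 epithelial marker counts. In KO GFPhi cells, primer ls_17 gave 19, 14, 3 and 2 counts and ls_10 of the second date gave 9, 4, 2 and 1. By date the level was 17.6 and 25.5 CPM in KO GFPhi, 525 and 134 CPM in WT GFPhi, 69.3 and 0.855 CPM in KO GFPlo, and 10.1 and 0 CPM in WT GFPlo cells.

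Spt1 was counted in 3 groups. Its level was 14.9 CPM (10.9–19.99, 2 of 48 cells) in KO GFPhi, 98.0 CPM (87.9–109, 11 of 61 cells) in WT GFPhi, 0 CPM (0–2.00, 0 of 52 cells) in KO GFPlo and 42.02 CPM (33.999–51.4, 7 of 39 cells) in WT GFPlo cells. No 2 of these intervals overlap. Both KO GFPhi cells had primer ls_18 of the second date, with 32 and 13 counts. In WT GFPhi cells primer ls_6 of the second date gave 135, 7 and 1, ls_24 gave 64, 35, 20, 4 and 3, and ls_6 of the first date gave 69 and 1. In WT GFPlo cells primer ls_15 gave 37 and 37 counts in pools 11 and 12, and umi_15 gave 14, 4, 1 and 1. By date Spt1 was at 0 and 20.8 CPM in KO GFPhi, 60.9 and 117 CPM in WT GFPhi, 0 and 0 CPM in KO GFPlo, and 0.919 and 80.2 CPM in WT GFPlo cells.

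**Figure D3:**
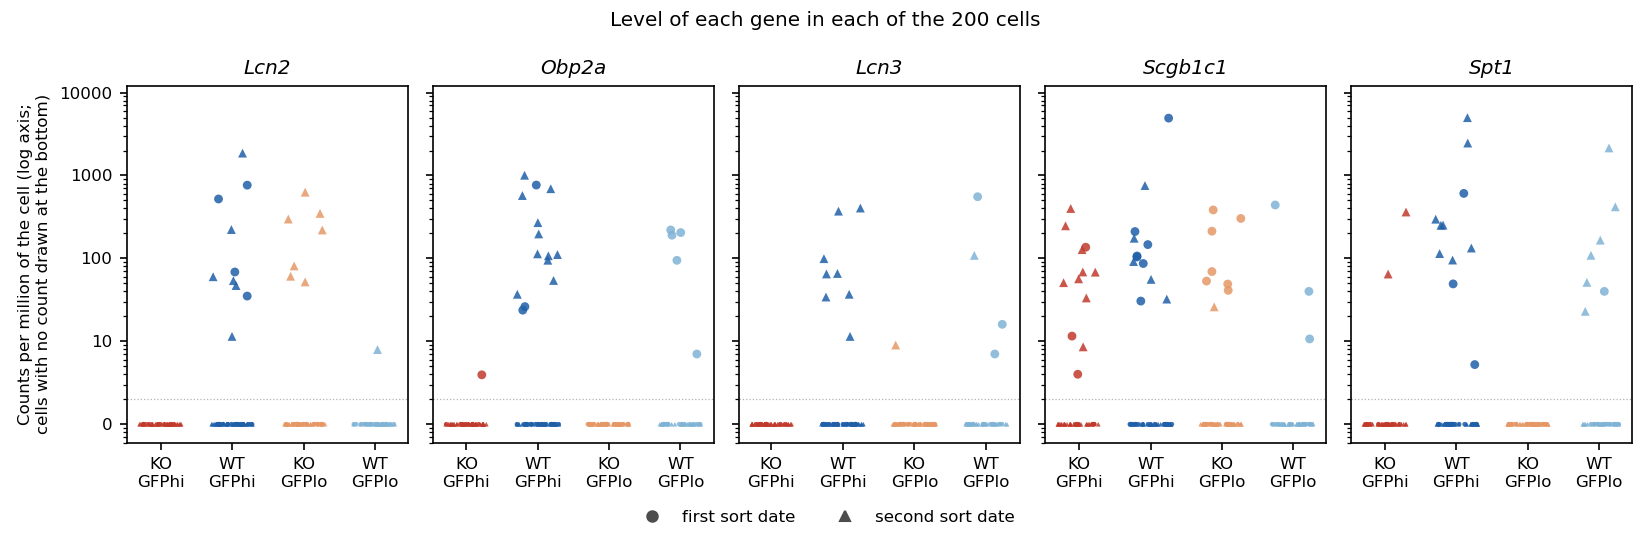
Level of each gene in each of the 200 cells, as counts per 1000000 of the cell on a log axis, with cells at no count drawn at the bottom; circles are cells of the first and triangles of the second sort date. Lcn2 and Lcn3 have no point above the bottom in KO GFPhi, Obp2a and Spt1 none in KO GFPlo, and the highest cells reach 4916 for Scgb1c1 and 4983 for Spt1, both in WT GFPhi.

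**Figure D4:**
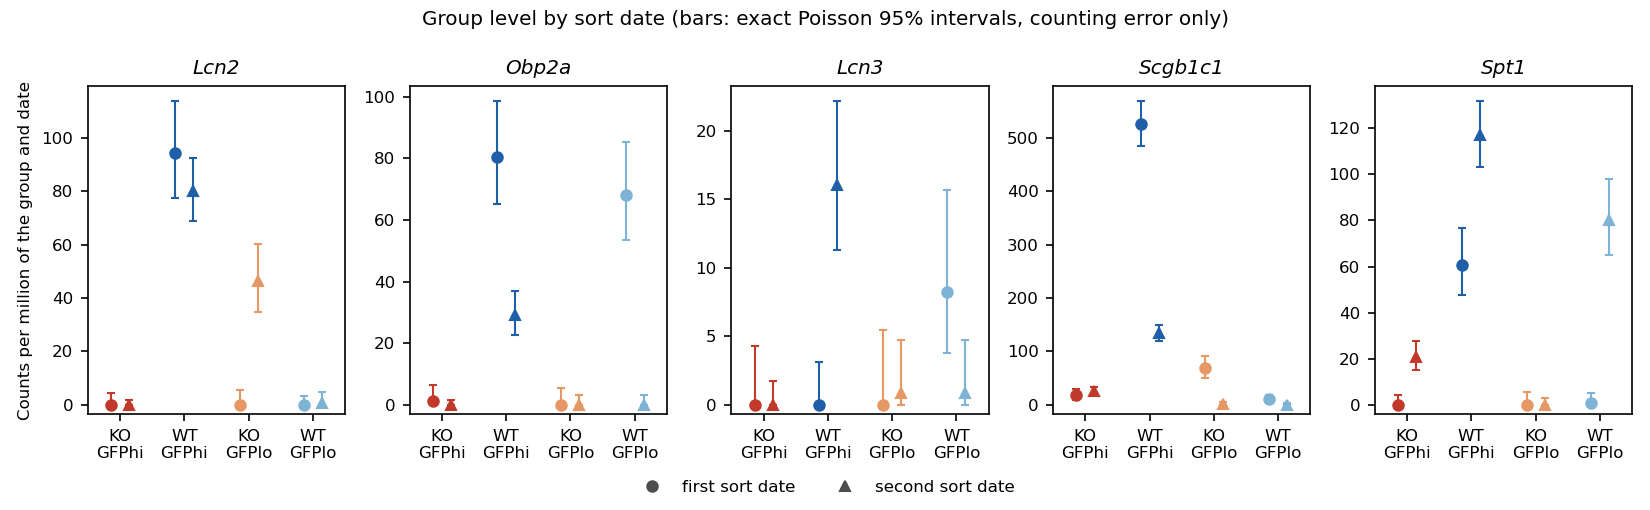
Level of each gene by group and sort date, as counts per 1000000 of the group and date, with exact Poisson 95% intervals for counting error only. Lcn2 in WT GFPhi lies at 94.3 and 79.9 on the 2 dates, whereas Lcn3 in WT GFPhi and Lcn2 in KO GFPlo come from the second date alone and Obp2a in WT GFPlo from the first alone.

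KO was first compared with WT among cells in which the Aire reporter was bright. All 5 genes, each with 10 or more counts over both groups, were lower in KO by 2-fold or more, against 29.5% of the 15033 genes counted that often, and 20.2% of those were higher. Their median log2 ratio was −6.03, against −0.13 for the 15033 genes. Lcn2, Obp2a and Lcn3 reached 10 counts through WT alone, with 0, 1 and 0 counts in KO. With KO set to 3 counts over the group, Lcn2 was 85.1-fold lower and Lcn3 10.7-fold lower in KO GFPhi cells. Folds given below as at least rest on the same 3 counts for a group at 0. Exact 95% limits of such folds are lower, here 68.8-fold for Lcn2 and 8.28-fold for Lcn3. Obp2a was 140-fold lower (24.7–5557, from 1 count), Scgb1c1 11.4-fold lower (8.97–14.8) and Spt1 6.56-fold lower (4.80–9.17), with exact conditional binomial 95% intervals. With leading cells alone the log2 ratios were −8.71 for Lcn2, −6.11 for Obp2a, −5.47 for Lcn3, −4.10 for Scgb1c1 and −2.85 for Spt1, so all kept their direction. For Lcn2 and Lcn3, at 0 counts in KO, a choice of cells could hardly turn the direction.

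Within dates the direction in GFPhi cells was the same wherever the gene was counted. With 0 counts in KO on both dates, the direction was fixed for Lcn2 and Lcn3. On the first and the second date Lcn2 was at least 26.8-fold and at least 57.6-fold lower in KO, and Scgb1c1 29.9-fold and 5.27-fold lower. Obp2a was 68.7-fold lower on the first and at least 20.96-fold lower on the second, and Spt1 at least 17.3-fold and 5.61-fold lower. Lcn3 could be compared on the second date only, where it was at least 11.6-fold lower. The first date had only 9 KO GFPhi cells, all of primers ls_10, ls_18 and umi_10. In WT GFPhi cells of that date, Lcn2 and Obp2a each stood in 1 primer. Folds of the first date thus rest on few primers, which their counting limits do not cover. Without the WT cell that held most of it, the log2 ratio of Scgb1c1 was −2.21 instead of −3.51 and that of Spt1 was −1.98 instead of −2.70. Without the primer and date with most counts, that of Lcn3 rested on 0 and 5 counts in KO and WT and was −3.32.

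In GFPlo cells the 5 genes did not move together. Obp2a, Lcn3 and Spt1 were lower in KO by 2-fold or more and Lcn2 and Scgb1c1 higher, against 27.7% lower and 23.8% higher among the 13882 genes that reached 10 counts. The median log2 ratio of the 5 was −2.52, against −0.05 for the 13882. Obp2a, Lcn3 and Spt1 reached 10 counts through WT alone, with 0, 1 and 0 counts in KO. Lcn2 reached them through KO alone, with 1 count in WT. For these genes a call past 2-fold followed from reaching the minimum. Obp2a was at least 20.2-fold (exact limit 15.99-fold) and Spt1 at least 25.9-fold (exact limit 20.6-fold) lower in KO GFPlo cells. Lcn3 was 8.17-fold lower (1.16–355) on 1 and 10 counts. Lcn2 was 66.1 times (11.4–2658) the WT GFPlo level, on 54 and 1 counts, and Scgb1c1 was 5.34 times that level (2.73–11.4), on 48 and 11 counts. With the mean of per-cell levels in place of summed counts, the log2 ratio of Scgb1c1 was 0.79 instead of 2.37, which is under 2-fold, and it was 1.28 without the primer and date with most counts.

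Each of these GFPlo differences rested mostly on 1 date. The Lcn2 excess in KO was of the second date, with 54 and 1 counts, and the first date had 0 and 0. The Scgb1c1 excess was of the first date, 6.86 times (3.51–14.7), and the second had 1 and 0 counts. Obp2a was lower on the first date, at least 15.4-fold, and at 0 in both groups on the second. Spt1 was at least 31.2-fold lower on the second date, and Lcn3 had 1 and 1 counts there. With primers ls_5 and ls_12 left out, the log2 ratio of Lcn2 was 4.97 instead of 5.47. With leading cells alone it was 4.68 for Lcn2, −6.81 for Obp2a, −2.52 for Lcn3, 2.11 for Scgb1c1 and −6.42 for Spt1. Without leukocyte-marked cells, which were 20 of 52 in KO GFPlo and 6 of 39 in WT GFPlo, the log2 ratio was 7.47 for Lcn2, −6.49 for Obp2a, 2.77 for Scgb1c1 and −6.76 for Spt1. For Lcn3 it was −1.15 without them, on 1 and 5 counts.

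**Figure D5:**
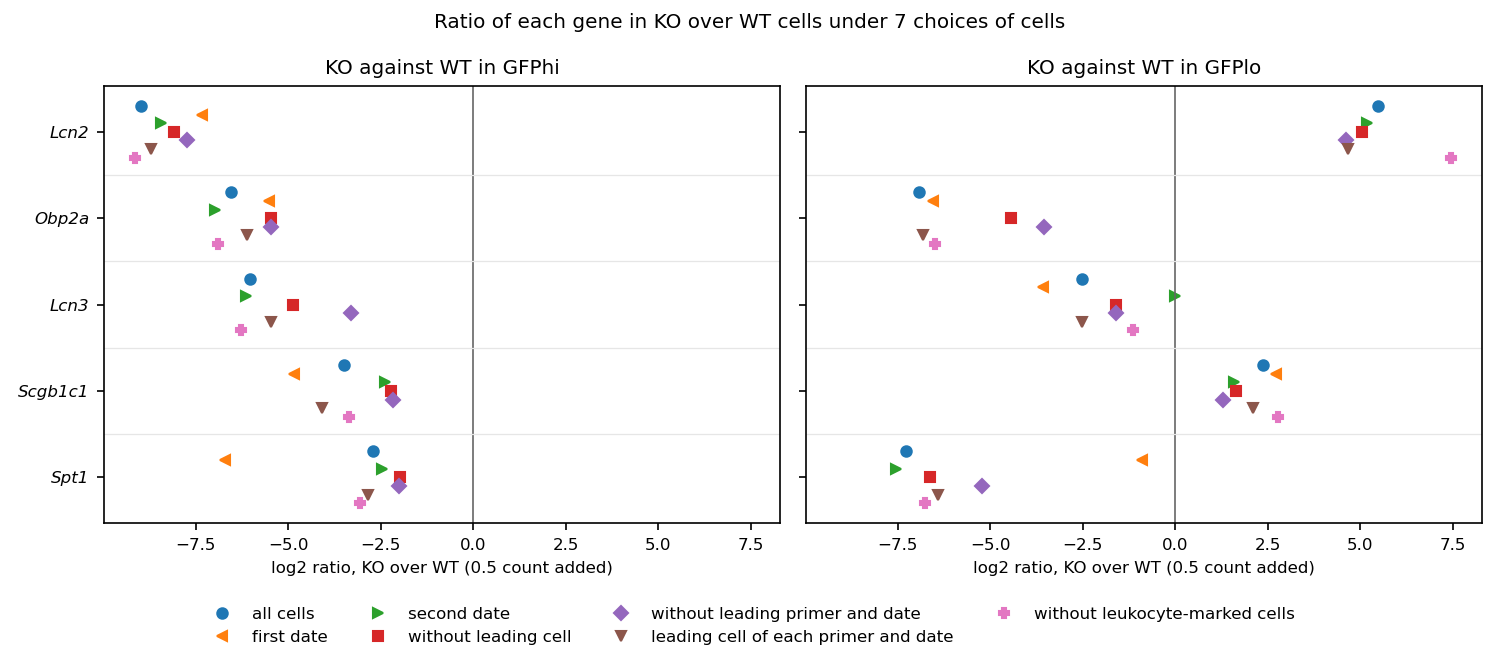
Log2 ratio of KO over WT (0.5 count added to each sum) for the 5 genes in GFPhi cells on the left and GFPlo cells on the right, under 7 choices of cells; a setting with no count in the pair has no point. All points for GFPhi lie below 0, and in GFPlo those of Lcn2 and Scgb1c1 lie above 0 and those of Obp2a and Spt1 below it, while Lcn3 reaches 0.00 on the second date.

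High against low GFP was compared within each genotype, and these comparisons share their samples with those of KO and WT. In WT cells 4 genes were higher in GFPhi by 2-fold or more and 0 lower, against 27.9% higher and 24.2% lower of 15064 genes, with a median log2 ratio of 1.22 for the 5 and 0.05 for all. Lcn2 was 192 times (34.1–7595) and Scgb1c1 54.6 times (30.4–110) as high in WT GFPhi as in WT GFPlo cells. Spt1 was 2.33 times (1.85–2.96) and Lcn3 2.41 times (1.18–5.44) as high, and Obp2a 1.42 times (1.07–1.89), which is under 2-fold. The values of Obp2a, Spt1 and Lcn3 rested on single cells and dates. Obp2a was 1.18 times as high on the first date and at least 11.4-fold higher on the second, and its log2 ratio was −0.57 without its leading cell and 3.05 without pool 4. Spt1 was 66.2 and 1.46 times as high on the first and the second date, and its log2 ratio was 0.50 without its leading cell. On the first date Lcn3 had 0 counts in WT GFPhi cells against 9 in WT GFPlo cells, and its log2 ratio was 0.06 without its leading cell.

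In KO cells 3 of the genes reached 10 counts over both gates. Lcn2 did so through KO GFPlo alone and Spt1 through KO GFPhi alone, each with 0 counts in the other gate. Lcn2 was at least 29.3-fold lower in KO GFPhi than in KO GFPlo cells (exact limit 23.1-fold). Spt1 was at least 9.20-fold higher (exact limit 7.18-fold). Among 13898 genes, 26.2% were lower and 24.8% higher. Scgb1c1 was at 0.894 times (0.611–1.32) the KO GFPlo level, with an interval that holds 1. By date that ratio was 0.254 (0.132–0.462) and 29.8 (5.13–1197), so the pooled value is a mean of opposite differences. The median log2 ratio was −0.17 over the 3 genes and −0.03 over all.

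The share of cells with any of the 10 genes was compared after thinning each cell to 10000 counts, which left out 4 KO GFPhi, 6 WT GFPhi, 4 KO GFPlo and 7 WT GFPlo cells. It was 18.2% (8.19–32.7%, 8 of 44 cells) in KO GFPhi, 58.2% (44.1–71.3%, 32 of 55) in WT GFPhi, 20.8% (10.5–34.99%, 10 of 48) in KO GFPlo and 28.1% (13.7–46.7%, 9 of 32) in WT GFPlo cells. Unthinned, 15, 38, 14 and 16 cells of these groups had a count. The WT GFPhi share lay above the others, with an interval that overlaps that of WT GFPlo alone. This overlap moved with depth. At 5000 counts the WT GFPhi interval (26.1–51.8%) overlapped those of KO GFPlo (8.40–30.9%) and WT GFPlo (5.86–30.5%). At 20000 counts the WT GFPhi interval (46.9–77.9%) overlapped that of KO GFPlo (14.7–49.4%) alone. These intervals take each cell as separate, which cells of 1 primer and date are not. After thinning to 10000 counts, Scgb1c1 remained in 6 of 44 KO GFPhi and 7 of 55 WT GFPhi cells, and Spt1 in 2 of 44 and 10 of 55. As a background level for free RNA, shares were also taken in leukocyte-marked cells, which may hold epithelial RNA of their own. Lcn2 had a count in 12.2% of the 41 leukocyte-marked cells (median total 22501) and in 8.18% of the other 159 (median total 30632), and Spt1 in 12.2% and 9.43%. Obp2a had 2.44% and 11.9%, Lcn3 4.88% and 6.92%, and Scgb1c1 7.32% and 20.1%. For Lcn2 and Spt1 the share of cells with a count is therefore at or below that of leukocyte-marked cells and is not read as a share of expressing cells. Of the 41 leukocyte-marked cells 20 were KO GFPlo, a group with Obp2a in 0 of 52 cells and Lcn3 in 1. The lower shares of these genes in leukocyte-marked cells thus cannot be told apart from the difference between groups.

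Cells rarely held more than 1 of the genes. Of the 200 cells 117 held none, 64 held 1, 15 held 2 and 4 held 3, all 4 being WT GFPhi. Lcn2 was in 0 cells with Obp2a or Spt1, in 5 with Scgb1c1 and in 2 with Lcn3. Obp2a shared 5 cells with Lcn3, which is 25% of the cells with Obp2a and 38.5% of those with Lcn3, and it shared 5 with Spt1. The WT GFPhi cell with 558 Scgb1c1 counts also held 87 of Obp2a and 69 of Spt1, and no other cell held as much Obp2a. Cells of a shared primer and date enter these counts more than once.

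The genes most like each member in which of the 200 cells held a count were ranked by Jaccard index among 16569 genes. For Lcn2 they were Mmp7 (0.417), a secreted protease, Syt8 (0.409) and Ces2e (0.4). For Obp2a they were Gpr50 (0.455), Iapp (0.429), which encodes an islet peptide, and the lipocalin Apod (0.366). Those of Lcn3 were Gip (0.357), an intestinal hormone gene, Sprr1b (0.357), of the cornified envelope, and Lcn11 (0.333). Those of Scgb1c1 were Pex11c (0.444), Fam171b (0.355) and A730036I17Rik (0.345), and those of Spt1 were Rasl10a (0.323), Trim12a (0.308) and Ttc29 (0.308). Shared primers and depth enter all of these indices.

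Genes beside the members on the chromosome were partly counted in the same cells. Within 100 kb, Obp2a has 11 annotated genes with at least 10 counts, Lcn3 has 9, Lcn2 and Scgb1c1 have 8 each and Spt1 has 0. Odf3, a sperm tail gene 1.04 kb from Scgb1c1 on the same strand, had 40 counts in 3 cells, all WT GFPhi and all with Scgb1c1, and 36 of them were in the cell with 558. Lcn6, 18.4 kb from Obp2a, had 1 count in KO GFPhi, 44 in WT GFPhi, 0 in KO GFPlo and 76 in WT GFPlo cells. Its leading cell held 68 of these counts and was the WT GFPlo cell with 63 of Obp2a, which also held all 12 counts of Lcn10. Lcn8 had 0, 136, 0 and 0 counts and Fcna, a ficolin gene 72.0 kb from Obp2a, 0, 144, 0 and 1 in that order of groups. Both had their leading cell in pool 5 with primer ls_6, which held 5 counts of Obp2a.

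Lcn11, 8.92 kb from Lcn3, had 0 counts in KO GFPhi, 41 in WT GFPhi, 38 in KO GFPlo and 22 in WT GFPlo cells. It was in 6 cells with Lcn3. Of these counts 37 stood in the pool 11 cell of primer ls_12, KO GFPlo, and 37 in that of ls_5, WT GFPhi. A230005M16Rik, an antisense transcript gene 2.52 kb from Obp2a whose counts may hold reads of the other strand, had 48 counts in that ls_12 cell and 50 in that ls_5 cell and none elsewhere. The Lcn11 level of KO GFPlo thus rested on a pair of cells that match in these genes and carry labels of different groups.

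Among related genes, most other lipocalins were lower in KO in both gates. In GFPhi cells 7 of 8 tested were lower and 1 higher (all genes 29.5% lower and 20.2% higher), with a median log2 ratio of −5.67. In GFPlo cells 8 of 10 were lower and 2 higher (all genes 27.7% and 23.8%), with a median of −4.09. In GFPhi every lower one but Apod reached 10 counts through WT alone, with at most 1 count in KO. Most of those lower in GFPlo also reached them through WT alone, with 0 counts in KO. For such genes a lower call followed from reaching the minimum, and their counts often stood mainly in 1 cell, as for Lcn8 with 73.5%. Apod, a carrier of lipids, was at 7.30 CPM in KO GFPhi and 270 CPM in WT GFPhi cells, 36.9-fold lower. Ptgds, which makes prostaglandin D, was 155-fold lower in KO GFPhi, at 0.332 and 51.6 CPM. Orm1, an acute-phase plasma lipocalin, was the exception in GFPhi at 6.33 times (2.62–18.5) the WT level. Of 22 other secretoglobins in the table none reached 10 counts in a pair.

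Other salivary and lacrimal gland products were lower in KO in 6 of 9 tested in GFPhi cells and higher in 1 (median log2 ratio −2.32), against 29.5% and 20.2% of all genes. In GFPlo cells 10 of 14 were lower and 2 higher (median −4.56), against 27.7% and 23.8% of all genes. Klk1, a kallikrein of salivary glands, was at 0 CPM in KO GFPhi and 131 CPM in WT GFPhi cells, at least 131-fold lower. Wfdc18 went the other way, at 1613 CPM in KO GFPhi and 225 CPM in WT GFPhi cells, 7.17 times higher (6.65–7.74). Read against the same shares, airway secretory products were lower in 6 of 9 and higher in 1 in GFPhi (median −4.09), and lower in 5 of 8 and higher in 1 in GFPlo cells (median −2.27). Bpifa1, an airway surface protein, was 34.8-fold lower in KO GFPhi, at 10.6 and 370 CPM, with 71.3% of its counts over all groups in 1 cell. Chi3l4 differed by gate, at 0.332 CPM in KO GFPhi against 164 CPM in WT GFPhi, and 1520 CPM in KO GFPlo against 4.42 CPM in WT GFPlo cells, with 48.3% of its counts in 1 cell.

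Genes induced with Lcn2 in inflammation were lower in KO GFPhi cells in 10 of 12 tested and higher in 0 (all genes 29.5% and 20.2%), with a median log2 ratio of −4.33. In GFPlo cells 4 of 13 were lower in KO, near the 27.7% of all genes, and 6 higher, against 23.8%, with a median of 0.97. Saa3 was at 7.97 CPM in KO GFPhi against 751 CPM in WT GFPhi, and at 214 CPM in KO GFPlo against 3.10 CPM in WT GFPlo cells. Of its counts over all groups, 46.1% were in 1 cell. Of its 396 KO GFPlo counts, 228 and 152 were in cells of primer ls_4. Slpi, a protease inhibitor of mucosal secretions, was at 8.30 CPM in KO GFPhi against 989 CPM in WT GFPhi and at 47.1 CPM in KO GFPlo against 382 CPM in WT GFPlo cells. Of the Slpi counts, 40.5% were in 1 cell. The list shares S100a8 and S100a9 with the neutrophil markers, of which 7 of 9 were lower in KO GFPhi and 0 higher, and 6 of 8 lower and 1 higher in KO GFPlo. Against the same shares of all genes, leukocyte markers were lower in KO GFPhi in 14 of 23 tested and higher in 0, and lower in 5 and higher in 12 of 23 in KO GFPlo, and their part in these lists was not tested.

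Receptors and regulators gave few counts. The Lcn2 receptor gene Slc22a17 was at 7.64 CPM in KO GFPhi and 3.75 CPM in WT GFPhi cells, 2.04 times (0.990–4.38), and Lrp2, an endocytic receptor, was at 3.32 and 2.31 CPM. Of the regulators of secretory lineages, 4 of 9 tested were lower and 2 higher in KO GFPhi (all genes 29.5% and 20.2%), and 2 of 8 lower and 2 higher in KO GFPlo cells (all genes 27.7% and 23.8%), the GFPlo shares being near those of all genes. Xbp1, which drives the secretory machinery, was 4.04-fold lower in KO GFPhi and 5.34-fold lower in KO GFPlo, with 30.2% of its counts in 1 cell. The leukocyte-marked WT GFPhi cell with 280 Scgb1c1 counts held 108 of Xbp1, and the part of leukocyte RNA in the Xbp1 level was not tested. Elf3, an epithelial factor, was 2.42 times (1.76–3.35) the WT level in KO GFPhi and 14.7 times (5.38–56.1) in KO GFPlo. Against the same shares of all genes, epithelial markers were lower in KO GFPhi in 1 of 14 and higher in 1, and lower in 5 of 14 and higher in 1 in KO GFPlo. Markers of tuft cells, another epithelial type of the thymic medulla, were lower in 0 of 4 and higher in 1 in KO GFPhi, and lower in 4 of 6 and higher in 0 in KO GFPlo.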

How the data were processed

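Single cells were counted in a table of whole numbers per gene and cell that the authors deposited as raw counts that are not normalized. The build mm10 and the tools HTSeq, SAMtools 0.1.19, Picard 1.79, TopHat and TopHat2 are named per the submitters' processing notes. The sources used here do not give their roles, the strand setting or whether molecular identifiers were collapsed, and counts exceeded the deposited identifier count in 40 cells, so counts are tags. Per the file headers, the metadata give flow cytometer intensity in arbitrary units and a sort date. All 200 cells were used, without doublet removal, and 0 columns lacked a sample.

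The 10 genes and all lists were chosen with earlier results of these data known. Counts were summed per group. A gene was tested for 2-fold with at least 10 counts over both groups, and a group at 0 was set to 3 counts. A gene that reaches 10 counts with 0 or 1 in a group is therefore past 2-fold in any case. The counts of genes lower or higher in each list, and the shares of all genes, hold such calls too. No edgeR test was run, since each group is 1 sample. Of each list the 5 genes with most counts, at least 20, could be named, as could the 3 genes of highest Jaccard index and neighbours within 100 kb. The neutrophil markers, Saa1 and Cxcl1 in cells with Lcn2 lie outside that rule and were named after their values were seen. Shares used exact binomial intervals, which take each cell as separate, and intervals cover counting error only. The calls and ratio intervals were tested on simulated independent Poisson sums of well-counted genes. These sums lack the gathering of real counts in single cells and shared primers. They therefore do not check the intervals for the genes described here. Tools were scipy 1.17.1, pandas 2.3.3, numpy 2.4.6 and matplotlib 3.10.9 in Python 3.11.15, and R 4.3.3, with edgeR 4.0.16 (TMM) and DESeq2 1.42.0 for alternative scaling alone. Positions came from GENCODE M21, which held 34467 of 38406 symbols and 9 of the 10 genes. Spt1 was placed through its RefSeq synonym Mucl2.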

Additional observations from a re-analysis of the deposited data

Results flagged for a closer look

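Lcn2 differed between KO and WT in opposite directions in the 2 gates. Its log2 ratio of KO over WT was −9.00 in GFPhi and 5.47 in GFPlo cells, a difference of −14.47 on the log2 scale. The same counts gave a log2 ratio of GFPhi over GFPlo of 6.9998 in WT and −7.47 in KO cells, a difference of 14.47. Scgb1c1 had a log2 ratio of KO over WT of −3.51 in GFPhi and 2.37 in GFPlo cells, a difference of −5.87. These results stand here because the counting intervals of the 2 ratios lay on opposite sides of 1. The differences were not tested, since each group is 1 sample. The ratios on the GFPlo side rested on cells of 3 primers of the second date for Lcn2 and mostly on primers ls_4 and ls_22 of the first date for Scgb1c1.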

How the results depend on the processing

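Of 475 values of 20 log2 ratios under alternatives, 413 lay within the counting interval of the ratio over all cells, 56 lay outside it with the same sign or for a gene under 2-fold, and 6 changed sign. Leaving out any 1 of the 12 pools, TMM or DESeq2 scaling, the 40 cells of lowest depth or leukocyte-marked cells changed the sign of none of the ratios past 2-fold. KO over WT in GFPhi kept its sign for all 5 genes under every alternative that gave a value, with 5 genes past 2-fold, against 1 with umi primers alone. Where a group had 0 counts, as KO GFPhi had of Lcn2 and Lcn3, leaving out cells could hardly turn the sign. For such ratios an unchanged sign is therefore no check. In GFPlo the 5 genes past 2-fold were 2 on the first date, 2 on the second, 1 with umi primers alone and 3 without the primer and date with most counts. GFPhi over GFPlo in WT had 4 genes past 2-fold, against 2 with umi primers alone, 2 at 3-fold and 2 without the cell with most counts. In KO it had 2, against 1 on the first date and 0 with umi primers alone. The sign changed for Lcn3 between KO and WT GFPlo on the second date (0.00413) and between WT GFPhi and WT GFPlo on the first date (−4.35) and without the primer and date with most counts (−1.49). With umi primers alone it changed for Scgb1c1 between KO and WT GFPlo (−3.71) and for Scgb1c1 (−4.57) and Spt1 (−5.84) between WT GFPhi and WT GFPlo. The share of cells with any of the genes, 32.96% when thinned to 10000 counts, was 22.2% at 5000 counts, 41.5% without thinning, 21.2% with at least 2 counts and 15.6% with leading cells alone. The cause of these changes was not tested beyond the smaller number of cells or counts each leaves. Settings with 0 counts in both groups, such as Lcn3 in GFPhi on the first date, gave no value. No paired analysis was possible because replicate numbers only name cells and no result comes from a test. A cell's depth limits what a count of 0 says: at the median of 29106.5 counts, a gene at the WT GFPhi level of Lcn3 gives fewer than 1 count.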

Other observations

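WT GFPhi cells with Lcn2 had a median flow cytometer GFP intensity of 23180.5 (8544 to 56073), against 21656 over all WT GFPhi cells (8169 to 88538), in arbitrary units. The top of that range came from the ls_5 cells, at 53941 and 56073, with 1 count of Lcn2 each. KO GFPhi cells with Scgb1c1 had a median of 29156, against 27667 over all KO GFPhi cells. WT GFPlo cells with Obp2a had a median of 9015 (1871 to 10920), against 3190 over all WT GFPlo cells (350 to 11329), on 5 cells of 3 primers, and all of these cells were of the first sort date.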
